A study of Homo sapiens with 37 samples.

Results

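The 4 human INK4 inhibitors, CDKN2A, CDKN2B, CDKN2C and CDKN2D, and the long non-coding RNA CDKN2B-AS1, also known as ANRIL, were followed through 37 RNA-seq libraries of cells driven towards senescence by radiation, doxorubicin, mutant HRAS or long passage. The members were picked by symbol after the Ensembl identifiers of the count tables had been matched to gene names, which gave 5 of 57773 genes, and all 5 passed the filter on low counts in every set of libraries. CDKN2C was lower in 8 of 9 comparisons with control cells and higher in 0. CDKN2B was higher in 6, CDKN2A was higher in 5 and lower in 1, CDKN2B-AS1 was higher in 1 and lower in 4, and CDKN2D was higher in 3 and lower in 3.

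INK4 proteins bind the cyclin D dependent kinases CDK4 and CDK6 and keep them from phosphorylating the retinoblastoma protein RB1, so that E2F factors stay bound and genes of S phase stay off. CDKN2A encodes p16INK4a and, from a separate first exon and in another reading frame, p14ARF, which holds back MDM2. CDKN2B encodes p15INK4b, known as an inhibitor that TGF-beta induces, CDKN2C encodes p18INK4c and CDKN2D encodes p19INK4d. CDKN2B-AS1 is transcribed from the strand opposite to CDKN2A and CDKN2B and is known for binding Polycomb proteins, which silence this locus in dividing cells. Human p16INK4a is a widely used marker of senescent fibroblasts.

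The 17 groups were compared within 5 sets, and each fibroblast group held 2 libraries. Aortic endothelial cells (HAEC, population doubling level, PDL, 4 to 6) were irradiated with 4 Gy in 3 libraries and left as controls in 2. Umbilical vein endothelial cells (HUVEC, PDL 3 to 5) were irradiated with 4 Gy in 3 libraries and left as controls in 3. IMR-90, a strain of fetal lung fibroblasts, was irradiated with 10 Gy at PDL 15 or grown to PDL 52 (named replicative exhaustion in the labels), and both groups share 1 control of proliferating cells at PDL 15. WI-38, another strain of fetal lung fibroblasts, was used at PDL 25. In the first WI-38 set, cells took 2 µg/mL doxorubicin for 24 h against untreated controls, or a lentivirus carrying HRASG12V at a multiplicity of infection of 10 with 1 µg/mL puromycin against an empty vector given at the same multiplicity with the same puromycin. In the second WI-38 set, the doxorubicin experiment was repeated with its own controls (named DMSO in the file headers), other cells were irradiated with 10 Gy against their own controls, and cells at PDL 53 to 55 were set against proliferating cells at PDL 25. Which promoter drives HRASG12V, and how long after treatment cells were taken, is not given in the sources used here. Whether the libraries of a group are separate cultures is not stated either. The spread that the p-values rest on may therefore be technical.

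In the GENCODE release 29 annotation of GRCh38, CDKN2A (ENSG00000147889) lies on the minus strand at chr9:21967753-21995301 and CDKN2B (ENSG00000147883) on the same strand at chr9:22002903-22009363. CDKN2B-AS1 (ENSG00000240498) runs the other way at chr9:21994778-22121097, from the first exon of p14ARF across the whole of CDKN2B. CDKN2C (ENSG00000123080) lies at chr1:50960745-50974633 on the plus strand and CDKN2D (ENSG00000129355) at chr19:10566462-10569059 on the minus strand. The start windows shown here are those of the 2 CDKN2A transcripts, whose counts cannot be separated in a gene-level table, of CDKN2B-AS1, which starts 533 bases from the p14ARF start on the other strand, and of the CDKN2C start that holds E2F letters. They are from RefSeq on GRCh38.p14, run 5′ to 3′ from 250 bases before the start to 50 after it, and have E2F letters in capitals:

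CDKN2A, p14ARF side, chr9:21995275-21995574, minus strand: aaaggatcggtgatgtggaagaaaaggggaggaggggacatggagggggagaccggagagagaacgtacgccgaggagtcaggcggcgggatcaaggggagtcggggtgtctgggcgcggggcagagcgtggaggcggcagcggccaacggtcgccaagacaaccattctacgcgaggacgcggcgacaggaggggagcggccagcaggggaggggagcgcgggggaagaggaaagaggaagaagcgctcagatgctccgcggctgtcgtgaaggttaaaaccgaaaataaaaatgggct

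CDKN2A, p16INK4a side, chr9:21974808-21975107, minus strand: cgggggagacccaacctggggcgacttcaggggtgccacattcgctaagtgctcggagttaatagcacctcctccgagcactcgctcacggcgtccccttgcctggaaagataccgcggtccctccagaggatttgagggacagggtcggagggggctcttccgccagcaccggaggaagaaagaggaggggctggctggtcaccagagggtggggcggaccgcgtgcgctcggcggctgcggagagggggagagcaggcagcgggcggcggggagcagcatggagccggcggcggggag

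CDKN2B-AS1, chr9:21994541-21994840, plus strand: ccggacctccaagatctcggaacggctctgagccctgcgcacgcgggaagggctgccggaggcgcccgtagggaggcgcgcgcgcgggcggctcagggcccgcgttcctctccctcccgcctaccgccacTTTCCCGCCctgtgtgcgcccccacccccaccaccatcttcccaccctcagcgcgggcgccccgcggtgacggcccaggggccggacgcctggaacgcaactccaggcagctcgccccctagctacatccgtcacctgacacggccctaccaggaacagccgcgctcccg

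CDKN2C, second of 3 starts, chr1:50968456-50968755, plus strand: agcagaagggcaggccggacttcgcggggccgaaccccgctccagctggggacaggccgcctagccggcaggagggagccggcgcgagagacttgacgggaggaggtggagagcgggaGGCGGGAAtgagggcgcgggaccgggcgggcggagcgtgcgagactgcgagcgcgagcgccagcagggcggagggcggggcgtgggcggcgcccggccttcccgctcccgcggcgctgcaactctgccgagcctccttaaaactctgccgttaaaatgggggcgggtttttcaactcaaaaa

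The E2F letters searched, on both strands, were TTTCCCGC, TTTGGCGC, TTTCGCGC and TTCCCGCC. The CDKN2B-AS1 window held TTTCCCGC from base -120 and TTCCCGCC from base -119 relative to the start, overlapping, and the CDKN2C window held TTCCCGCC from base -132 on the minus strand. Of 35116 windows of 300 bases in the RefSeq table, 1766 (5.03%) held at least 1 match. The 8 windows of the 5 members held no other match. A match is a description of the letters and not a measured site.

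Library totals ran from 102293388 to 370996204 counts, and the second WI-38 set stood apart, with 82.0% to 91.1% of its counts in protein-coding genes against 50.7% to 66.9% in the other 25 libraries. Mitochondrial genes took 3.21% to 14% of counts in that set and 0.1% to 0.607% in the others. Within the set they took 9.71% and 14% in irradiated WI-38, against 6.31% and 6.99% in its controls, 8.71% and 5.78% at PDL 53 to 55, against 3.21% and 4.41% in proliferating cells, and 5.78% and 5.61% in the doxorubicin repeat, against 3.58% and 5.11% in its controls. Their part in the results of that set was not tested. The coefficient of biological variation was 38.1% in that set and 5.69% to 16.3% in the others. HRAS, the delivered gene, stood at 1944 and 1989 CPM (counts scaled to the library size) in the HRASG12V libraries, against 36.1 and 47.04 CPM with the empty vector. The 7 endothelial markers summed to 1381 to 1706 CPM in the endothelial groups and 37.6 to 307 CPM in the fibroblast groups, and the 7 fibroblast markers to 22.1 to 29.6 CPM in endothelial groups and 930 to 14424 CPM in fibroblast groups. The IMR-90 controls, labelled as proliferating cells, did not have the highest MKI67, a marker of dividing cells. It averaged 29.6 ± 2.28 CPM in irradiated IMR-90, 20.04 ± 3.32 CPM at PDL 52 and 18.6 ± 1.70 CPM at PDL 15 (SD, n = 2 each). Of 4 proliferation genes, MKI67 among them, 3 were higher and 0 lower in irradiated IMR-90. At PDL 52, 1 was higher and 1 lower, so the list had no common direction there. CCND1, which encodes cyclin D1, averaged 1773 CPM in irradiated IMR-90, 1802 CPM at PDL 52 and 105 CPM at PDL 15. All IMR-90 responses below rest on those 2 control libraries, and the contrast of irradiated cells with PDL 52, which leaves them out, is given further on.

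Levels are given in CPM, scaled by the trimmed mean of M-values within each set. The counts behind the members ran from 53 for CDKN2C in a library of PDL 53 to 55 to 16128 for CDKN2B in an HRASG12V library. CDKN2A was highest with HRASG12V (58.2 ± 0.652 CPM) and lowest in HUVEC controls (1.71 ± 0.163 CPM), and CDKN2B shared that order, with 106 ± 7.39 CPM and 4.75 ± 0.427 CPM. CDKN2C was highest in HAEC controls (31.6 ± 1.49 CPM) and lowest in WI-38 at PDL 53 to 55 (0.229 ± 0.0531 CPM). These ends held with a scaling over all 37 libraries and with scaling to protein-coding counts.

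**Figure D1:**
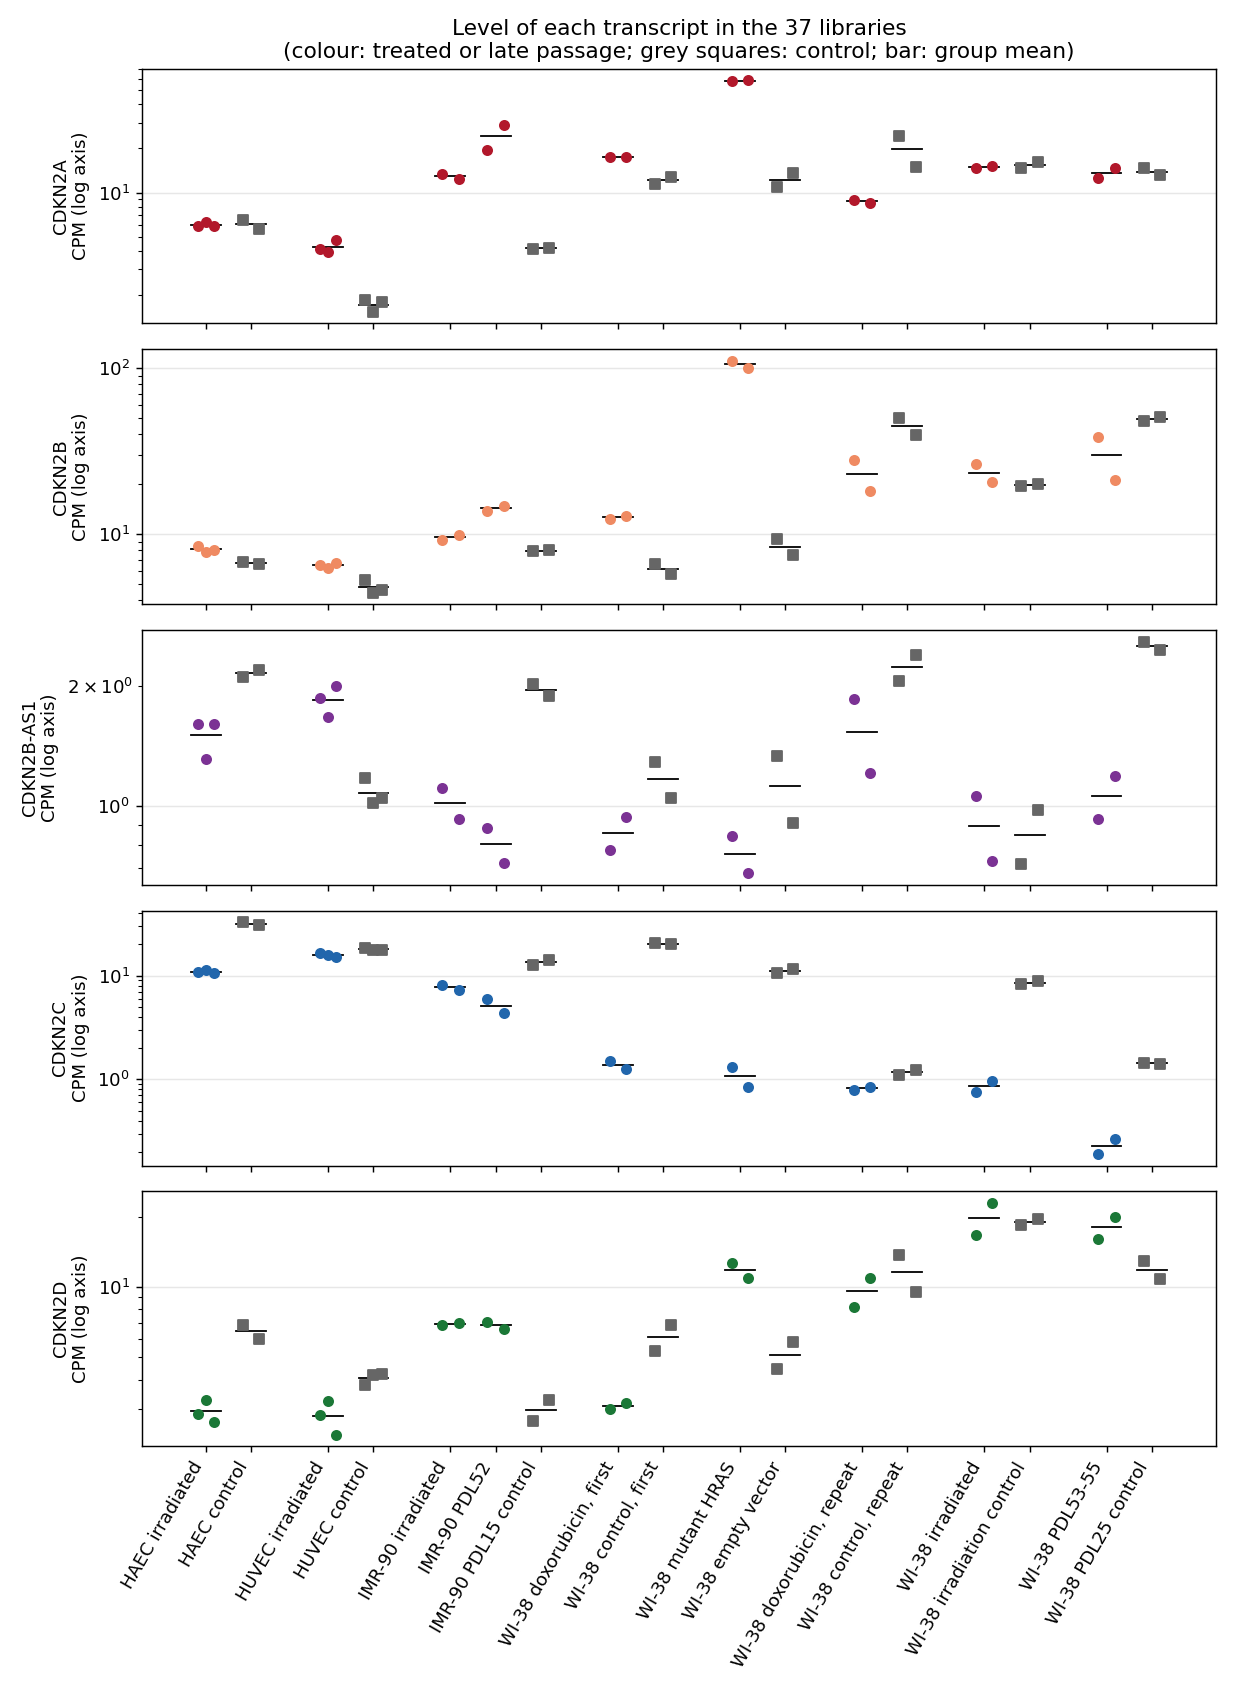
Level of each member in CPM (log axis) in the 37 libraries, with treated or late-passage groups in colour, their controls as grey squares to the right, and the group mean as a bar. CDKN2A and CDKN2B peak with mutant HRAS at 58.2 and 106 CPM, and CDKN2C lies below its control in all 9 comparisons.

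In the CDKN2A order, PDL 52 IMR-90 followed HRASG12V at 24.2 ± 6.64 CPM, and then came a run of WI-38 groups and irradiated IMR-90 between 19.8 and 12.2 CPM. Within that run, irradiated WI-38 (14.96 CPM) and its controls (15.4 CPM), and PDL 53 to 55 WI-38 (13.6 CPM) and its proliferating control (13.9 CPM), were neighbours that did not differ beyond their spread. The lower end was held by irradiated HAEC at 6.04 ± 0.230 CPM, HAEC controls at 6.08 ± 0.639 CPM, irradiated HUVEC at 4.26 ± 0.429 CPM and PDL 15 IMR-90 at 4.15 ± 0.0423 CPM. CDKN2B was higher in every group of the second WI-38 set (19.8 to 49.8 CPM) than in any group but HRASG12V of the other sets (4.75 to 14.3 CPM). CDKN2B-AS1 spanned only 0.762 CPM with HRASG12V to 2.52 CPM in the proliferating WI-38 of the second set, and the order changed with the scaling at both ends. With scaling to protein-coding counts PDL 15 IMR-90 came highest, ahead of the proliferating WI-38, and the WI-38 irradiation controls came lowest. CDKN2D was highest in irradiated WI-38 and its controls (19.8 and 18.98 CPM) and lowest in irradiated HUVEC (2.79 ± 0.460 CPM). The second WI-38 set also differed in its coding share and depth, so a level set across these sets cannot be told apart from that difference.

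Per kilobase of annotated exon the members can be set beside each other only roughly. The length merges all annotated exons of a gene, from 1503 bases for CDKN2D to 8024 for CDKN2B-AS1, whichever transcripts are present. The annotation used for counting may also differ, and the order depends on these lengths. By plain CPM, proliferating WI-38 had more CDKN2B-AS1 (2.52 CPM) than CDKN2C (1.43 CPM). CDKN2C led in 6 of 17 groups, among them all 4 endothelial groups, with 3.30 CPM per kb in irradiated HAEC and 9.53 CPM per kb in HAEC controls. CDKN2D led in 6 groups, CDKN2B in 3 and CDKN2A in 2. In HRASG12V cells CDKN2B stood at 26.2 and CDKN2A at 13.4 CPM per kb, against 2.07 and 2.82 CPM per kb with the empty vector. In the same cells CDKN2C stood at 0.326 CPM per kb, against 3.33 CPM per kb with the empty vector. CDKN2B-AS1, at 0.0949 to 0.314 CPM per kb, came last in 16 of 17 groups, and in the remaining group, WI-38 at PDL 53 to 55, CDKN2C was lower at 0.0690 CPM per kb against 0.132 CPM per kb.

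Each treated or late-passage group was then tested against its own control with edgeR's quasi-likelihood test, and a gene was called at a Benjamini-Hochberg adjusted p below 0.05 over all genes of its set. In total 31 of 45 tests of the members were called, 15 higher and 16 lower. In irradiated HAEC 1 member was higher and 3 were lower, where 39.7% of all genes tested were called, 19.7% higher and 19.9% lower. In irradiated HUVEC 3 were higher and 2 lower, where 38.7% of all genes were called, 18.6% higher and 20.1% lower. Both IMR-90 arms had 3 members higher and 2 lower, where 49.1% of all genes were called after radiation (26.6% higher, 22.5% lower) and 50.1% at PDL 52 (26.6% higher, 23.5% lower). Doxorubicin in the first WI-38 set raised 2 members and lowered 2, where 26.8% of all genes were called, 13.6% higher and 13.2% lower. HRASG12V raised 3 and lowered 1, where 45.9% of all genes were called, 27.1% higher and 18.9% lower. In the second WI-38 set the doxorubicin repeat lowered 1 member (5.45% of all genes called, 3.18% higher and 2.26% lower), radiation lowered 1 (14.98% called, 8.89% higher and 6.09% lower) and PDL 53 to 55 lowered 2 (12.6% called, 5.80% higher and 6.82% lower). A high count of called members beside shares this large is no result about the members, whose sizes and directions of change are given next.

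**Figure D2:**
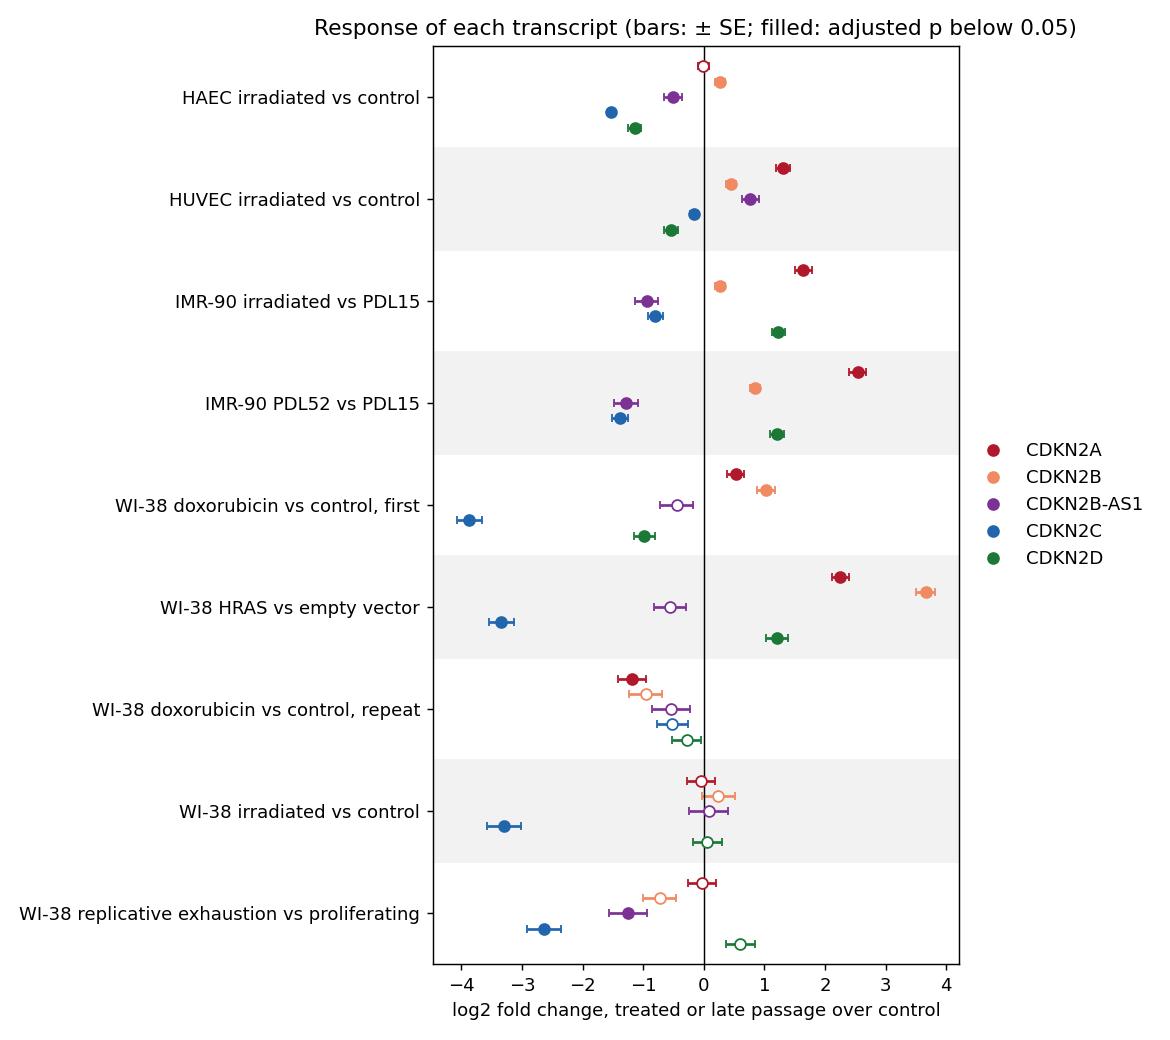
Log2 fold change (x axis, ± SE) of the 5 members in the 9 comparisons, treated or late passage over control, with filled points at an adjusted p below 0.05. CDKN2C lies left of 0 throughout, from -0.17 to -3.87, and CDKN2B with mutant HRAS lies farthest right at 3.66.

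CDKN2A rose in irradiated HUVEC, in both IMR-90 arms, with doxorubicin in the first WI-38 set and with HRASG12V, and it fell in the doxorubicin repeat. With HRASG12V it had 57.7 and 58.6 CPM, against 10.9 and 13.5 CPM with the empty vector. The groups were far apart, and the level was 4.76-fold higher (log2 fold change 2.25 ± 0.14 SE, edgeR adjusted p = 1.72e-07). PDL 52 IMR-90 had 19.5 and 28.9 CPM and irradiated IMR-90 13.4 and 12.4 CPM, against 4.12 and 4.18 CPM at PDL 15. No library of either arm came near the controls, and the increases were 5.82-fold at PDL 52 (edgeR adjusted p = 3.75e-09) and 3.11-fold after radiation (edgeR adjusted p = 3.45e-07). Irradiated HUVEC had 4.13, 3.90 and 4.73 CPM, against 1.83, 1.53 and 1.78 CPM in control HUVEC. Each irradiated library lay above each control, as did 23.3% of all genes, and the rise was 2.48-fold (edgeR adjusted p = 1.04e-09). Because the table counts p16INK4a and p14ARF together, which of them changed cannot be said. In bulk RNA a change in the share of cells with the transcript and a change in its level per cell cannot be told apart.

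CDKN2A was not called in irradiated HAEC, in irradiated WI-38 or at PDL 53 to 55. Irradiated HAEC had 5.88, 6.31 and 5.94 CPM, against 6.53 and 5.62 CPM in control HAEC, and the groups overlapped (log2 fold change -0.01, 95% interval -0.19 to 0.16, edgeR adjusted p = 0.927). Irradiated WI-38 had 14.8 and 15.1 CPM, against 14.8 and 16.04 CPM in its controls, with an interval of -0.48 to 0.40 on the log2 scale. WI-38 at PDL 53 to 55 had 12.5 and 14.6 CPM, against 14.7 and 13.1 CPM in proliferating cells, with an interval of -0.48 to 0.41. Neither interval reaches the log2 change of 0.53 seen with doxorubicin in the first set. There, treated cells had 17.5 and 17.5 CPM, against 11.5 and 12.8 CPM in control cells, and the call (1.44-fold higher, edgeR adjusted p = 0.0144) was lost when any 1 of the 4 libraries was left out (edgeR adjusted p = 0.0584 to 0.167). The doxorubicin repeat turned the direction, with 8.88 and 8.50 CPM in treated cells, against 24.5 and 15.01 CPM in control cells (log2 fold change -1.18 ± 0.23, edgeR adjusted p = 0.00717). That fall shrank to -0.79 (edgeR adjusted p = 0.121) without the first control library and to -1.15 (edgeR adjusted p = 0.0537) without the second treated library.

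CDKN2B rose in both endothelial types, in both IMR-90 arms and in both experiments of the first WI-38 set, and it was called lower in 0 comparisons of the main fits. Under some alternatives it was called lower in the second WI-38 set, as given below. HRASG12V gave the largest rise of any member, with 111 and 101 CPM, against 9.33 and 7.47 CPM with the empty vector. That was 12.6-fold higher (log2 fold change 3.66 ± 0.16, edgeR adjusted p = 8.95e-09). With doxorubicin in the first set CDKN2B had 12.4 and 12.8 CPM, against 6.62 and 5.72 CPM in control cells, a 2.05-fold rise (edgeR adjusted p = 0.000243). At PDL 52 it had 13.8 and 14.8 CPM, against 7.86 and 8.03 CPM at PDL 15, a 1.80-fold rise (edgeR adjusted p = 7.51e-07). These groups were well separated, whereas radiation moved CDKN2B by at most 1.36-fold among the calls. Irradiated HUVEC had 6.54, 6.22 and 6.69 CPM, against 5.24, 4.43 and 4.59 CPM in control HUVEC (1.36-fold). Irradiated HAEC had 8.46, 7.78 and 7.99 CPM, against 6.81 and 6.57 CPM in control HAEC (1.21-fold, edgeR adjusted p = 0.00790). With all 37 libraries in 1 fit neither endothelial call held (edgeR adjusted p = 0.08 in HUVEC and 0.318 in HAEC). Irradiated IMR-90 had 9.23 and 9.90 CPM, against 7.86 and 8.03 CPM at PDL 15 (1.20-fold, edgeR adjusted p = 0.0132). The last call ended without the second irradiated library (edgeR adjusted p = 0.126), without the first PDL 15 library (edgeR adjusted p = 0.0629), when libraries were scaled to protein-coding counts (edgeR adjusted p = 0.119) and with all 37 libraries in 1 fit (edgeR adjusted p = 0.263).

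In the second WI-38 set, where CDKN2B started high, none of its 3 changes was called by edgeR in the main fit. The doxorubicin repeat had 27.8 and 18.3 CPM, against 50.1 and 39.6 CPM in control cells (log2 fold change -0.96 ± 0.27, edgeR adjusted p = 0.0559). Each treated library lay below each control, as did 22.6% of all genes. This fall was called by edgeR without a filter (adjusted p = 0.00105) and with all 37 libraries in 1 fit (0.000322). It was also called with the replicate number as a block (edgeR adjusted p = 0.0265) and by DESeq2 (adjusted p = 0.0138). With 1 library left out the log2 fold change ran from -1.29 to -0.69. WI-38 at PDL 53 to 55 had 38.7 and 21.2 CPM, against 48.3 and 51.2 CPM in proliferating cells (log2 fold change -0.73 ± 0.27, edgeR adjusted p = 0.0984). That fall too was called by edgeR without a filter (adjusted p = 0.0156), with all 37 libraries (0.00426) and with the block (0.0408). With 1 library left out it ran from -1.19 to -0.36. Irradiated WI-38 had 26.3 and 20.5 CPM, against 19.5 and 20.1 CPM in its controls. Doxorubicin controls of WI-38 at PDL 25 thus stood at 44.8 ± 7.37 CPM in the repeat and 6.17 ± 0.636 CPM in the first set. The second set differs from the first in coding share and depth too, and the part of these in the level was not tested.

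CDKN2B-AS1 moved against its protein-coding neighbours in IMR-90 and with them in HUVEC. At PDL 52 it had 0.883 and 0.724 CPM and in irradiated IMR-90 1.11 and 0.929 CPM, against 2.02 and 1.89 CPM at PDL 15. Both arms lay below both controls, as did 37.9% of all genes at PDL 52 and 37.7% after radiation. CDKN2B-AS1 was 2.43-fold lower at PDL 52 (edgeR adjusted p = 8.87e-05) and 1.91-fold lower after radiation (edgeR adjusted p = 0.00103). Irradiated HUVEC had 1.87, 1.67 and 2.00 CPM, against 1.18, 1.02 and 1.05 CPM in control HUVEC, a 1.70-fold rise (edgeR adjusted p = 0.000114). Irradiated HAEC had 1.61, 1.31 and 1.61 CPM, against 2.11 and 2.19 CPM in control HAEC, a 1.43-fold fall (edgeR adjusted p = 0.00850). The same dose of radiation thus gave opposite calls in the 2 endothelial cell types, and the HAEC call ended with all 37 libraries in 1 fit (-0.47, edgeR adjusted p = 0.23). HAEC and HUVEC form separate sets of libraries, so cell type and set cannot be told apart. WI-38 at PDL 53 to 55 had 0.928 and 1.19 CPM, against 2.58 and 2.46 CPM in proliferating cells (log2 fold change -1.25 ± 0.32, edgeR adjusted p = 0.0187). That call was lost without the first PDL 53 to 55 library (-1.05, edgeR adjusted p = 0.120), without the first proliferating library (-1.18, 0.153) or without the second (-1.28, 0.108).

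The other 4 changes of CDKN2B-AS1 were not called. HRASG12V cells had 0.843 and 0.681 CPM, against 1.34 and 0.910 CPM with the empty vector (log2 fold change -0.56 ± 0.27, edgeR adjusted p = 0.111), and the change was called lower when libraries were scaled to protein-coding counts (-0.92, edgeR adjusted p = 0.0175) or with all 37 libraries in 1 fit (-0.70, edgeR adjusted p = 0.0339). Leaving out the second empty vector library gave a call too (-0.91, edgeR adjusted p = 0.0181), whereas leaving out the first brought the change to -0.25 (edgeR adjusted p = 0.557). Doxorubicin gave 0.779 and 0.940 CPM, against 1.29 and 1.05 CPM in control cells of the first set. In the repeat it gave 1.85 and 1.21 CPM, against 2.06 and 2.39 CPM. In these 3 comparisons each treated library lay below each control, as did 32.6% of all genes with HRASG12V, 34.5% with doxorubicin in the first set and 22.6% in the repeat. Irradiated WI-38, with 1.06 and 0.732 CPM, overlapped its controls at 0.720 and 0.980 CPM. Of the exon bases of CDKN2B-AS1, 10.17% are shared with other genes, among them 341 bases with CDKN2A on the opposite strand, and whether reads were counted by strand is not given in the sources used here. Reads from these bases could therefore be split between the 2 genes.

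CDKN2A and CDKN2B were both called in 5 comparisons and moved the same way in all 5. CDKN2A and CDKN2B-AS1 were both called in 3, with the same direction in 1 and opposite directions in 2. MTAP, the enzyme gene on one side of the locus, was higher with HRASG12V (log2 fold change 1.06 ± 0.14, edgeR adjusted p = 8.20e-05) and in both IMR-90 arms, and lower in HAEC, HUVEC and doxorubicin-treated WI-38 of the first set. DMRTA1, on the other side, was higher with HRASG12V (4.08 ± 0.41), with doxorubicin in the first set (2.86 ± 0.40), at PDL 52 (1.99 ± 0.36) and in irradiated HUVEC (0.34 ± 0.06). With HRASG12V the 2 neighbours and the 2 INK4 genes were all called higher, and CDKN2B-AS1, which lies among them, had a negative fold change that was not called.

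**Figure D3:**
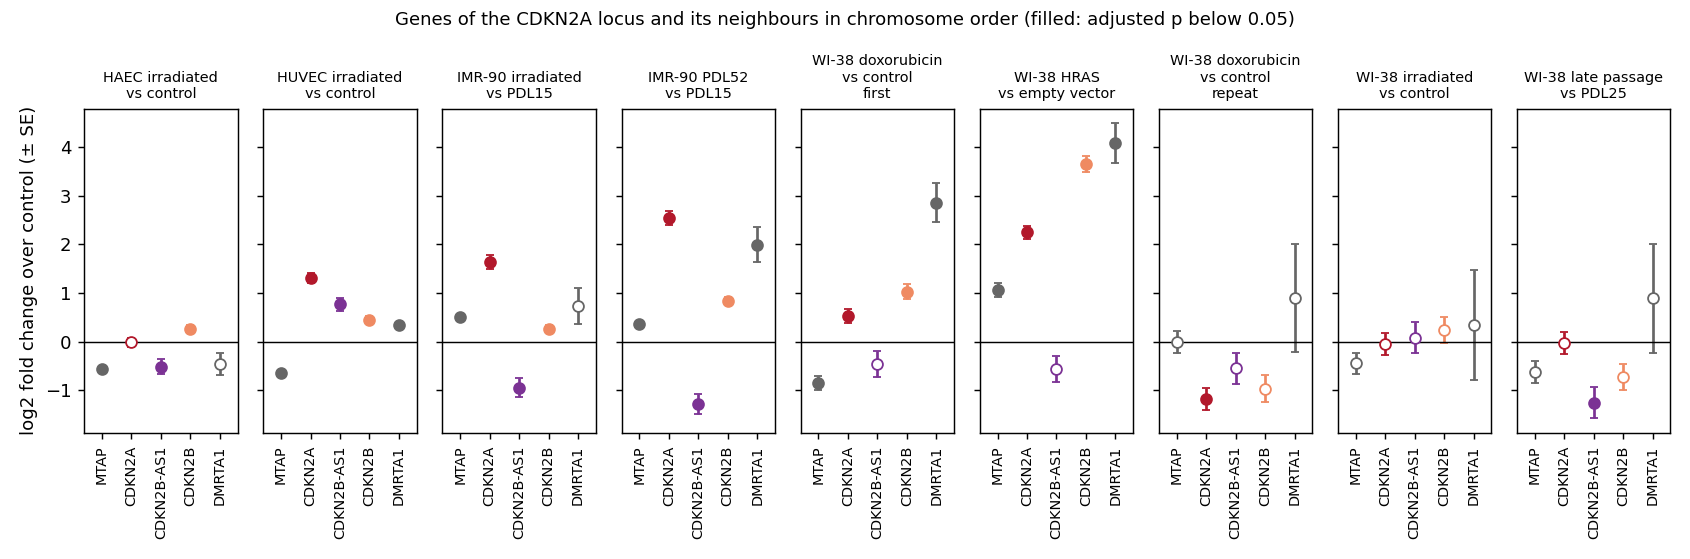
Log2 fold change (y axis, ± SE, treated or late passage over control) of MTAP, CDKN2A, CDKN2B-AS1, CDKN2B and DMRTA1 in their order along the chromosome, 1 panel per comparison, with filled points at an adjusted p below 0.05. With mutant HRAS MTAP, CDKN2A, CDKN2B and DMRTA1 lie at 1.06, 2.25, 3.66 and 4.08 and CDKN2B-AS1 at -0.56.

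CDKN2C fell in 8 of 9 comparisons and in the remaining one, the doxorubicin repeat, it also lay below its control. Doxorubicin in the first set left 1.52 and 1.26 CPM, against 20.6 and 20.001 CPM in control cells. This 14.6-fold fall was the largest of any member (log2 fold change -3.87 ± 0.21, edgeR adjusted p = 7.22e-08). HRASG12V left 1.33 and 0.839 CPM, against 10.5 and 11.6 CPM with the empty vector, 10.1-fold lower (edgeR adjusted p = 1.34e-07). Irradiated WI-38 had 0.758 and 0.975 CPM, against 8.36 and 8.78 CPM in its controls, 9.88-fold lower (edgeR adjusted p = 2.56e-06). WI-38 at PDL 53 to 55 had 0.191 and 0.266 CPM, against 1.44 and 1.42 CPM in proliferating cells, 6.22-fold lower (edgeR adjusted p = 2.57e-05). In all 4 the treated and control libraries were far apart.

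Outside WI-38 the fall of CDKN2C was smaller. Irradiated HAEC had 10.9, 11.3 and 10.6 CPM, against 32.7 and 30.6 CPM in control HAEC, 2.89-fold lower (edgeR adjusted p = 2.57e-15). Irradiated HUVEC had 16.6, 15.8 and 15.2 CPM, against 18.4, 17.7 and 17.6 CPM in control HUVEC. Each irradiated HUVEC library lay below each control, as did 23.99% of all genes, but the groups lay close (1.13-fold lower, edgeR adjusted p = 0.00791). The call ended without the third irradiated library (edgeR adjusted p = 0.0540). It also ended with scaling to protein-coding counts (edgeR adjusted p = 0.0727) or with all 37 libraries in 1 fit (edgeR adjusted p = 0.528). PDL 52 IMR-90 had 5.96 and 4.33 CPM and irradiated IMR-90 8.15 and 7.28 CPM, against 12.8 and 14.003 CPM at PDL 15. Both arms lay below the controls, as did 37.9% of all genes at PDL 52 and 37.7% after radiation. CDKN2C was 2.60-fold lower at PDL 52 (edgeR adjusted p = 5.01e-07) and 1.74-fold lower after radiation (edgeR adjusted p = 8.23e-05). In the doxorubicin repeat, treated cells had 0.793 and 0.841 CPM, against 1.10 and 1.24 CPM in control cells (log2 fold change -0.52, edgeR adjusted p = 0.303). The approximate 95% interval, -1.04 to -0.01, leaves out 0, but the edgeR test gave an unadjusted p of 0.0659. The controls there stood at 1.17 CPM, whereas the controls of the first set stood at 20.3 CPM and those of the WI-38 irradiation at 8.57 CPM. MKI67 in the 3 control groups of the second set kept the order of CDKN2C, with 36.2 CPM in the doxorubicin repeat, 201 CPM in the irradiation controls and 42.2 CPM in the proliferating cells, where CDKN2C had 1.43 CPM.

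The fall of CDKN2C mostly went with a fall of cell cycle genes, but not in IMR-90. Of 16 S-phase genes known as E2F targets (cyclins E and A2, the MCM helicase, PCNA and others), 16 were lower in irradiated HAEC and 16 in irradiated HUVEC. Doxorubicin in the first set lowered 15, HRASG12V lowered 14 and raised 1, radiation of WI-38 lowered 13 and raised 1, and PDL 53 to 55 lowered 8 and raised 1. In the doxorubicin repeat 1 was higher and 0 were lower. In irradiated IMR-90 all 16 were higher, with a median log2 fold change of 0.74 beside -0.02 over all genes, and at PDL 52 12 were higher and 0 lower, with a median of 0.37 beside -0.04. MKI67 was higher in irradiated IMR-90 too (0.67 ± 0.10, edgeR adjusted p = 7.07e-05). CDKN2C and MKI67 were both called in 7 comparisons and moved the same way in 6. CDKN2C and EZH2, the methyltransferase of Polycomb, were both called in 7 and moved the same way in all 7.

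**Figure D4:**
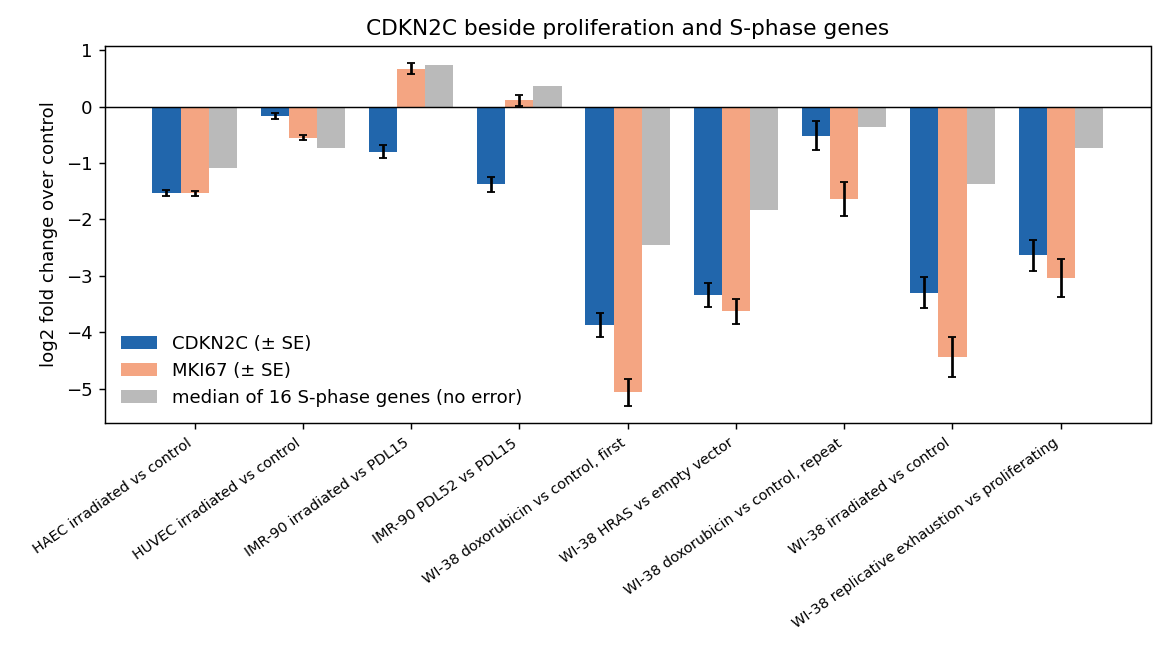
Log2 fold change over control of CDKN2C (± SE), MKI67 (± SE) and the median of 16 S-phase E2F targets (no error drawn) in the 9 comparisons. All 3 lie below 0 except in the IMR-90 arms, where CDKN2C lies at -0.80 and -1.38 and the S-phase median at 0.74 and 0.37.

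CDKN2D had no common direction, being called higher in 3 comparisons, lower in 3 and not called in 3. HRASG12V cells had 12.7 and 10.95 CPM, against 4.43 and 5.81 CPM with the empty vector, 2.31-fold higher (edgeR adjusted p = 0.000187). Irradiated IMR-90 had 6.83 and 7.02 CPM and PDL 52 IMR-90 7.08 and 6.61 CPM, against 2.66 and 3.26 CPM at PDL 15. The 2 arms rose almost alike, 2.34-fold (edgeR adjusted p = 5.62e-07) and 2.32-fold (edgeR adjusted p = 6.58e-07). Irradiated HAEC had 2.85, 3.28 and 2.64 CPM, against 6.89 and 5.98 CPM in control HAEC, 2.21-fold lower (edgeR adjusted p = 2.52e-08). Irradiated HUVEC had 2.82, 3.24 and 2.32 CPM, against 3.80, 4.18 and 4.22 CPM in control HUVEC, 1.45-fold lower (edgeR adjusted p = 0.000363). Doxorubicin in the first set gave 3.00 and 3.18 CPM, against 5.31 and 6.87 CPM in control cells, 1.97-fold lower (edgeR adjusted p = 0.00194). Thus CDKN2D followed CDKN2C down in the endothelial cells and with doxorubicin in the first set, and went the other way in IMR-90 and with HRASG12V.

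None of the 3 CDKN2D changes in the second WI-38 set was called. PDL 53 to 55 cells had 16.004 and 19.97 CPM, against 12.9 and 10.8 CPM in proliferating cells (log2 fold change 0.60 ± 0.24, edgeR adjusted p = 0.132). Each late-passage library lay above each control, as did 28.6% of all genes. Irradiated WI-38 had 16.7 and 22.9 CPM, against 18.5 and 19.5 CPM in its controls, and the doxorubicin repeat had 8.21 and 10.9 CPM, against 13.7 and 9.52 CPM in control cells. In both of these the groups overlapped.

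The partners of the INK4 proteins were read from lists of genes. CCND3, which encodes cyclin D3, was higher in 9 of 9 comparisons (log2 fold changes 0.49 to 2.20), and CCND2, which encodes cyclin D2, was higher in 8, up to 4.99 ± 0.08 at PDL 52 IMR-90, and lower in irradiated HUVEC at -0.32 ± 0.08. CCND1 was higher in 6 and lower in HAEC and HUVEC. CDK4, a kinase the INK4 proteins bind, was lower in 6 and higher in 0, and CDK6, the other, was higher in 5 and lower in irradiated HUVEC. RB1, the substrate, was called in 0 of 9 by edgeR, with log2 fold changes of -0.57 to 0.43 and an unadjusted p below 0.05 in 2. Its relative RBL1 was lower in 5. Of 10 E2F and DP genes, 7 were lower and 1 higher in irradiated HAEC, where 19.9% of all genes were lower and 19.7% higher. In irradiated HUVEC 8 were lower and 1 higher, where 20.1% of all genes were lower and 18.6% higher. In irradiated IMR-90 5 were higher and 2 lower, where 26.6% of all genes were higher and 22.5% lower. At PDL 52, 5 were higher and 4 lower, where 26.6% of all genes were higher and 23.5% lower. E2F1 was higher in irradiated IMR-90 (2.11 ± 0.09) and at PDL 52 (1.71 ± 0.09), lower with doxorubicin in the first set (-2.72 ± 0.18) and not called with HRASG12V (-0.39 ± 0.17).

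CDKN1A, which encodes p21 of the other family of inhibitors, was higher in 7 of 9 comparisons and most with HRASG12V (2.39 ± 0.14), whereas CDKN1B, which encodes p27, was lower in 6 and higher in irradiated HUVEC. On the p14ARF side, MDM2, the ubiquitin ligase that p14ARF binds, was higher in 7 and lower in 0. In irradiated HAEC, CDKN2A had a log2 fold change of -0.01 while CDKN1A (0.56 ± 0.04) and MDM2 (0.82 ± 0.03) rose. In irradiated WI-38 CDKN1A (0.94 ± 0.21) and MDM2 (0.87 ± 0.22) were also called higher and CDKN2A was not.

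Regulators of the INK4 locus had no common direction. Of the Polycomb genes measured, CBX2 was lower in 9 of 9 comparisons and EZH2 in 8, whereas BMI1, CBX7 and CBX8 were each higher in 3 and lower in 0. With HRASG12V, 5 of 14 measured Polycomb genes were higher and 2 lower, where 27.1% of all genes were higher and 18.9% lower. In irradiated HUVEC 4 were higher and 6 lower, where 18.6% of all genes were higher and 20.1% lower. PCGF2 matched no symbol in the files. Of 6 genes named as activators of the locus, 3 were higher and 1 lower with HRASG12V, among them ETS1 (0.89 ± 0.11) and ETS2 (0.91 ± 0.12). ETS1 was lower with doxorubicin in the first set (-1.51 ± 0.12). Of 7 repressors, 4 were higher and 0 lower with HRASG12V, with ID1 at 1.66 ± 0.12. Of 8 genes between TGF-beta and CDKN2B, SMAD4 was lower in 7 comparisons, SMAD7 higher in 6 and TGFBR2 higher in 6, and TGFB1 itself was not called with HRASG12V (0.12 ± 0.20, edgeR adjusted p = 0.645), where CDKN2B rose most.

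Markers of cell identity moved in some of the same comparisons. All 7 fibroblast markers were lower with HRASG12V, with a summed level of 930 CPM against 6336 CPM with the empty vector. All 4 smooth muscle markers were lower there too (71.9 CPM against 441 CPM), and of 7 endothelial markers 6 were higher and 1 lower (median log2 fold change 1.37), with a sum of 37.6 CPM against 75.4 CPM. Over all fibroblast libraries VWF, CDH5, KDR, CLDN5 and ESAM stayed at or below 4.12 CPM. EGFL7 stayed at or below 24.2 CPM there, and TEK ran from 9.92 to 306 CPM. With doxorubicin in the first set 5 of 7 fibroblast markers were higher and 0 lower, with 7875 CPM against 4380 CPM. All 7 fibroblast markers were lower in irradiated IMR-90, with 2950 CPM against 14424 CPM at PDL 15. At PDL 52, 6 of 7 were lower and 1 higher, with 4634 CPM. Of 5 epithelial markers, 3 were higher and 0 lower in each IMR-90 arm, with sums of 52.4 CPM after radiation and 60.2 CPM at PDL 52 against 12.9 CPM at PDL 15, where 2 of the 5 were at 0. EPCAM, CDH1 and ESRP1 stayed at or below 0.633 CPM in all fibroblast libraries, so these sums were mostly KRT8 and KRT18. The 4 leukocyte markers summed to at most 3.46 CPM in any group. The part of these shifts in the INK4 results was not tested.

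In the contrast that leaves out the PDL 15 controls, 3 members were called between irradiated and PDL 52 IMR-90, where 10.6% of all genes were called. CDKN2A was lower in irradiated cells (log2 fold change -0.90 ± 0.13, edgeR adjusted p = 0.000708), as was CDKN2B (-0.58 ± 0.08, edgeR adjusted p = 0.000420), and CDKN2C was higher (0.58 ± 0.13, edgeR adjusted p = 0.00929). The CDKN2C call was lost without the first irradiated library (0.50, edgeR adjusted p = 0.109), and with all 37 libraries in 1 fit the calls of CDKN2B (-0.58, edgeR adjusted p = 0.204) and CDKN2C (0.59, edgeR adjusted p = 0.1) both ended. Irradiated and PDL 52 cells differed little in CDKN2D (95% interval -0.19 to 0.23). Between the empty vector and the untreated WI-38 controls of the same set, 2 members were called, where 37.5% of all genes were called. CDKN2C was lower with the empty vector (-0.88 ± 0.18, edgeR adjusted p = 0.00258) and CDKN2B higher (0.45 ± 0.15, edgeR adjusted p = 0.0302). The CDKN2B call was lost without the first empty vector library (0.27, edgeR adjusted p = 0.109), without the first untreated library (0.55, 0.0709) or without the second (0.33, 0.262). CDKN2A had a log2 fold change of 0.01 there, with an interval of -0.26 to 0.28.

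Differences between responses were tested as such in 7 pairs, in 1 fit over the sets that hold them. HUVEC and HAEC, which took the same dose, differed in 4 members, where 17.96% of all genes differed. HUVEC minus HAEC was 1.32 ± 0.14 (log2) for CDKN2A, 1.28 ± 0.20 for CDKN2B-AS1, 1.36 ± 0.07 for CDKN2C and 0.61 ± 0.17 for CDKN2D. For CDKN2C (-0.17 in HUVEC, -1.53 in HAEC) and CDKN2D (-0.54 in HUVEC, -1.14 in HAEC) both cell types fell. Their positive differences mean smaller falls in HUVEC. The cell type and the set of libraries change together in this pair and cannot be told apart. The CDKN2B responses were not called different (0.18, interval -0.05 to 0.40). The CDKN2D difference was lost without the third irradiated HAEC library (0.50, edgeR adjusted p = 0.0511) or the first HAEC control (0.45, edgeR adjusted p = 0.126), and with all 37 libraries in 1 fit (0.55, edgeR adjusted p = 0.444). HRASG12V exceeded doxorubicin in the first WI-38 set by 1.73 ± 0.20 for CDKN2A, 2.63 ± 0.21 for CDKN2B and 2.19 ± 0.26 for CDKN2D, 3 members where 35.6% of all genes differed, and not by a called amount for CDKN2C (0.53, interval -0.01 to 1.07). The 2 responses have separate controls, and the empty vector arm also carried virus and puromycin.

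The 2 doxorubicin experiments did not give the same INK4 fold changes over their own controls. Repeat minus first was -1.69 ± 0.29 for CDKN2A, -1.97 ± 0.34 for CDKN2B and 3.37 ± 0.33 for CDKN2C, 3 members called where 4.42% of all genes differed (edgeR adjusted p = 0.000671, 0.000770 and 7.29e-07). The experiment and the set of libraries change together here and cannot be told apart. The controls differed too: CDKN2C had 1.17 CPM in the repeat controls and 20.3 CPM in the first. Treated cells had 0.817 CPM in the repeat and 1.39 CPM in the first. The part of the controls in these differences was not tested. Radiation minus doxorubicin within the second set was -2.78 ± 0.38 for CDKN2C, the 1 member called where 2.34% of all genes differed. Radiation minus late passage in the same set gave 0 calls among the members in the main edgeR fit, where 6.26% of all genes differed. There 2 of the 5 unadjusted p-values fell below 0.05, and DESeq2 called 0. With all 37 libraries in 1 fit, edgeR called CDKN2B (0.92, adjusted p = 0.0125), CDKN2B-AS1 (1.28, 0.00974) and CDKN2C (-0.73, 0.0478). Without a filter it called CDKN2B (0.98, adjusted p = 0.0371).

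WI-38 minus IMR-90 was called for 3 members after the same 10 Gy, where 19.9% of all genes differed, at -1.75 ± 0.31 for CDKN2A, -2.58 ± 0.30 for CDKN2C and -1.24 ± 0.30 for CDKN2D. For late passage it was called for 3 members, where 11.9% of all genes differed, at -2.60 ± 0.31 for CDKN2A, -1.60 ± 0.33 for CDKN2B and -1.27 ± 0.31 for CDKN2C. The late-passage CDKN2C difference was lost without either PDL 15 library, the first PDL 52 library or the first PDL 53 to 55 library (edgeR adjusted p = 0.0561 to 0.108). In these pairs the strain and the set of libraries change together and cannot be told apart.

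**Figure D5:**
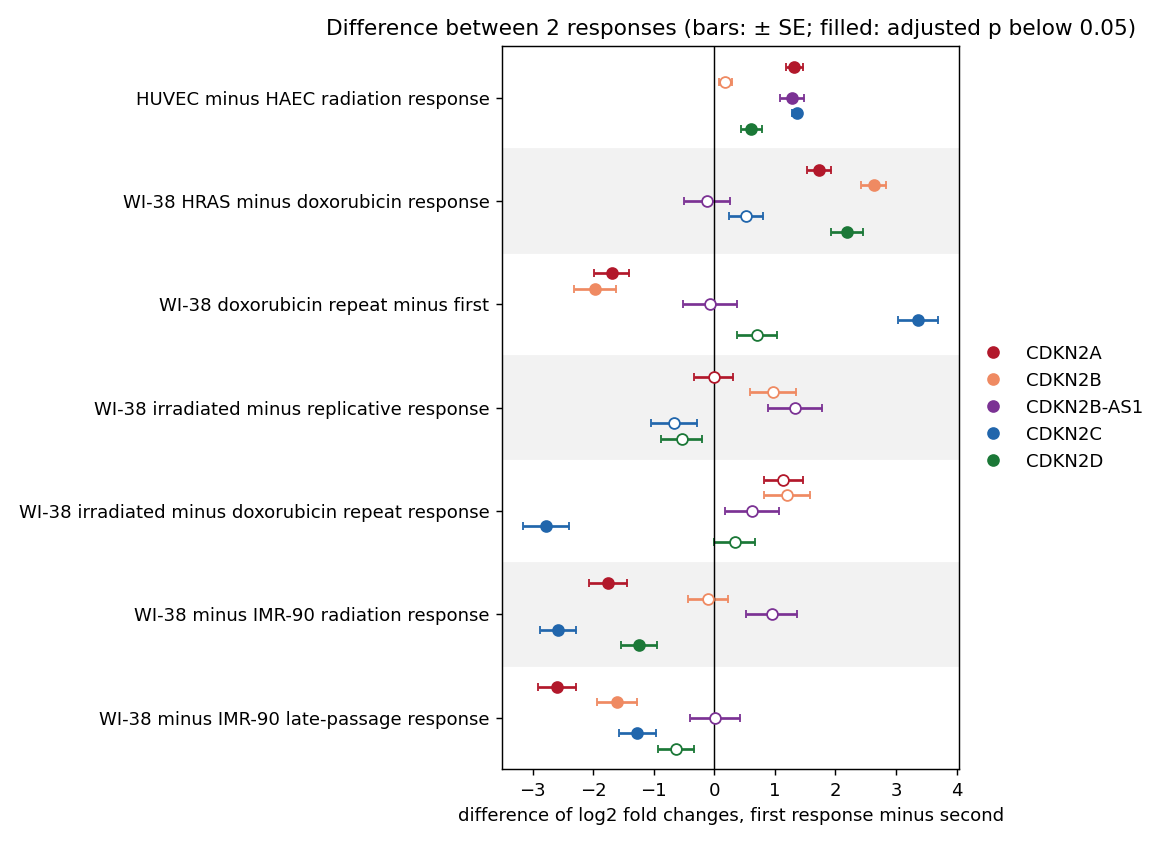
Difference between 2 responses (x axis, log2, ± SE, first named minus second) for the 5 members in 7 pairs, with filled points at an adjusted p below 0.05. The doxorubicin repeat minus the first experiment lies at -1.69 for CDKN2A, -1.97 for CDKN2B and 3.37 for CDKN2C.

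Over the 37 libraries, which share cell types, sets and depth, log2 CPM centred within each set went together for CDKN2A and CDKN2B (Pearson r = 0.73), CDKN2C went against both (r = -0.40 with CDKN2A and -0.57 with CDKN2B), and CDKN2B-AS1 had r = 0.01 with CDKN2B and a negative value with CDKN2D (r = -0.52). Among 13374 other expressed genes (13375 for CDKN2B-AS1), those most like CDKN2C were the linker histone genes H1-1 (r = 0.99) and H1-3 (r = 0.98) and the condensin gene NCAPD2 (r = 0.96). Those most like CDKN2A were BTN2A2 (0.86), PIP4K2C (0.85) and MIEF2 (0.85), and those most like CDKN2B were NEU1 (0.92), a lysosomal sialidase gene, FKBP15 (0.91) and BTN2A2 (0.91). For CDKN2D they were MXD3 (0.93), PGP (0.93) and IFRD2 (0.92), and for CDKN2B-AS1 ZCCHC14 (0.81), KAT6B (0.79) and SECISBP2 (0.77). These values describe the libraries and carry no test.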

How the data were processed

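Total RNA of cultured human cells was depleted of ribosomal RNA and sequenced, per the labels' protocols. For each library the authors deposited raw read counts, in whole numbers by Ensembl gene. Reads were handled with STAR 2.4, featureCounts, cutadapt and bcl2fastq on hg19, per the submitters' processing notes, which give them no order. Neither the annotation release nor the strand setting is given in the sources used here. Coordinates printed are on GRCh38. Of 57773 identifiers, 52338 were given a symbol. The p16INK4a and p14ARF transcripts share 1 count.

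Groups follow the labels. Tests were run with edgeR 4.0.16 (R 4.3.3), using quasi-likelihood fits per set, TMM factors, filterByExpr, Benjamini-Hochberg adjustment over all genes and a threshold of 0.05. A standard error is the size of the log2 fold change over the root of its F statistic, and 95% intervals span 1.96 of them on each side. These intervals are approximate and narrower than the F test implies, so a bound near 0 can disagree with the p-value. CPM are counts over the TMM-scaled library size of the set. Genes most like a member were the 3 with the highest Pearson r over 37 libraries among genes with a mean log2 CPM of at least 1, with a prior count of 2 and values centred within each set. Members and lists were chosen with earlier results of these data known. From the pathway lists, a gene could be named as 1 of the 2 called with the smallest adjusted p per list and comparison, and RB1, CDK4, CDK6, CCND1, CDKN1A, MDM2, MKI67, EZH2, BMI1, CBX7 and MTAP anywhere. Values of other list genes, among them DMRTA1, RBL1, E2F1, ETS1, ETS2, ID1, TGFB1 and the remaining cyclin, SMAD and CBX genes, were picked after they were seen.

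Alternatives were DESeq2 size factors, no filter, DESeq2 1.42.0's Wald test, compared groups only, all 37 libraries, the replicate number as a block, scaling to protein-coding counts, and each library left out. On simulated counts with 200 changed genes, 97.98% to 100% of those changed 4-fold were recovered per comparison, with 0 in the wrong direction. Of those changed 2-fold, 35.42% to 42.42% were recovered in the second WI-38 set and 80.56% to 100% elsewhere, and 3.16% to 9.91% of the calls were false.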

Additional observations from a re-analysis of the deposited data

Results flagged for a closer look

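In 6 of the 7 pairs of responses, at least 1 member responded differently in the 2 arms when the difference was tested as an interaction in edgeR. Values are differences of log2 fold changes. Their standard errors stand with the comparisons above, and no explanation was tested.

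HUVEC minus HAEC, both after 4 Gy, came to 1.32 for CDKN2A (edgeR adjusted p = 8.39e-08), 1.28 for CDKN2B-AS1 (3.14e-05), 1.36 for CDKN2C (1.47e-13) and 0.61 for CDKN2D (0.0103). The CDKN2D difference ended with all 37 libraries in 1 fit (0.55, edgeR adjusted p = 0.444). For CDKN2C and CDKN2D both cell types fell, and HUVEC fell less. The cell type and the set of libraries change together in this pair and cannot be told apart. For CDKN2B-AS1 the 2 cell types were called in opposite directions, but the HAEC call ended with all 37 libraries in 1 fit (edgeR adjusted p = 0.23), and for CDKN2A a call in HUVEC stood beside a log2 fold change of -0.01 in HAEC.

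HRASG12V minus doxorubicin in the first WI-38 set came to 1.73 for CDKN2A (edgeR adjusted p = 4.25e-05), 2.63 for CDKN2B (2.36e-06) and 2.19 for CDKN2D (5.64e-05). CDKN2D was called higher with HRASG12V and lower with doxorubicin.

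The repeat of the doxorubicin experiment minus the first came to -1.69 for CDKN2A (edgeR adjusted p = 0.000671), -1.97 for CDKN2B (0.000770) and 3.37 for CDKN2C (7.29e-07). In the second WI-38 set, radiation minus doxorubicin came to -2.78 for CDKN2C (edgeR adjusted p = 0.00128).

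After radiation, WI-38 minus IMR-90 came to -1.75 for CDKN2A (edgeR adjusted p = 0.000337), -2.58 for CDKN2C (3.65e-06) and -1.24 for CDKN2D (0.00608). At late passage it came to -2.60 for CDKN2A (edgeR adjusted p = 9.71e-06), -1.60 for CDKN2B (0.00279) and -1.27 for CDKN2C (0.00984). The IMR-90 side of both rests on the 2 PDL 15 libraries described above.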

How the results depend on the processing

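The 45 member responses were tested again, on the same data, under each alternative that kept every library. Of these re-tests, 290 held direction and side of the threshold, 11 gained a call, 7 lost one and 7 changed sign. With 2 libraries a group and a biological variation of 38.1%, changes near 2-fold in the second WI-38 set were often missed on simulated counts.

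The number of members called moved by more than 1.5 times in 7 comparisons, for causes that were not tested. With all 37 libraries in 1 fit it was 2 in irradiated HAEC, 3 in irradiated HUVEC, 3 in the doxorubicin repeat, 4 at PDL 53 to 55, 1 for irradiated IMR-90 against PDL 52, 3 for WI-38 radiation minus late passage and 3 for WI-38 radiation minus doxorubicin. Without a filter it was 2 in the repeat, 1 for radiation minus late passage and 3 for radiation minus doxorubicin. DESeq2 called 2 in the repeat and 2 for radiation minus doxorubicin.

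Replicate numbers are shared between groups, but the labels do not say that they mark pairs, and the deviations of same-numbered libraries correlated at -0.32 to 0.14 in endothelial cells and at -0.17 to 0.68 in fibroblasts. With the number as a block, 2 members were called in the repeat (CDKN2B at -0.97, edgeR adjusted p = 0.0265, beside CDKN2A) and 3 at PDL 53 to 55 (CDKN2B at -0.79, edgeR adjusted p = 0.0408). The other member counts were unchanged by the block.

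With 1 library left out at a time, the members called numbered 4 in irradiated HAEC, 4 to 5 in irradiated HUVEC, 4 to 5 in irradiated IMR-90, 5 at PDL 52, 3 with doxorubicin in the first set, 4 to 5 with HRASG12V, 0 to 2 in the repeat, 1 in irradiated WI-38 and 1 to 2 at PDL 53 to 55. They numbered 2 to 3 between irradiated and PDL 52 IMR-90 and 1 to 3 between empty vector and untreated cells. For differences of responses they numbered 3 to 4 for HUVEC minus HAEC, 3 to 4 for HRASG12V minus doxorubicin, 3 for repeat minus first, 0 to 1 for radiation minus late passage, 1 to 2 for radiation minus doxorubicin, 3 for the strains after radiation and 2 to 3 at late passage.

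Values that changed sign were uncalled and near 0. CDKN2A in HAEC (-0.01) was 0.03 with all 37 libraries, 0.00 with the block and 0.01 per protein-coding counts. CDKN2D in irradiated WI-38 (0.06) was -0.01 with DESeq2 size factors, -0.01 with DESeq2's test and 0.00 per protein-coding counts. CDKN2A at PDL 53 to 55 (-0.03) was 0.03 per protein-coding counts. CDKN2D in irradiated against PDL 52 IMR-90 (0.02) was 0.00 with size factors and with DESeq2. For empty vector against untreated cells, CDKN2A (0.01) was -0.02 without a filter and CDKN2B-AS1 (-0.06) was 0.07 with all 37 libraries. CDKN2A in radiation minus late passage (-0.01) was 0.00 without a filter.

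Leaving out a library also moved the following log2 values across 0: CDKN2A in HAEC (-0.11 to 0.11), in irradiated WI-38 (-0.10 to 0.03), at PDL 53 to 55 (-0.15 to 0.11), with empty vector (-0.18 to 0.15) and in radiation minus late passage (-0.18 to 0.12). CDKN2B-AS1 did so in irradiated WI-38 (-0.25 to 0.33), with empty vector (-0.38 to 0.16), in HRASG12V minus doxorubicin (-0.43 to 0.20), in repeat minus first (-0.41 to 0.22) and between strains at late passage (-0.15 to 0.23). CDKN2D did so in irradiated against PDL 52 IMR-90 (-0.03 to 0.07), in irradiated WI-38 (-0.19 to 0.23) and in the repeat (-0.52 to 0.01), and CDKN2B between strains after radiation (-0.30 to 0.09).

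Counts over all genes moved most with all 37 libraries in 1 fit: 3942 against 11118 in HAEC, 3269 against 10652 in HUVEC, 9125 against 14366 in irradiated IMR-90, 9314 against 14661 at PDL 52, 6464 against 1831 in the repeat, 10824 against 5036 in irradiated WI-38, 9148 against 4243 at PDL 53 to 55, 289 against 3095 for irradiated against PDL 52 IMR-90, 733 against 5446 for HUVEC minus HAEC, 4149 against 1634 for repeat minus first, 6553 against 2104 for radiation minus late passage, 5281 against 786 for radiation minus doxorubicin and 6848 against 4349 between strains at late passage. Without a filter the repeat gave 3135, radiation minus late passage 3190 and radiation minus doxorubicin 2102. DESeq2 gave 3609, 3534 and 1930 for these and 2930 for repeat minus first. Doxorubicin in the first set gave 12696 against 7868 with the compared groups only. Scaling to protein-coding counts put the median log2 fold change of all genes at -0.28 with HRASG12V (0.07 before), 0.24 for empty vector (0.07), -0.20 at PDL 52 (-0.04) and -0.13 in irradiated IMR-90 (-0.02), and each member's change is to be read relative to it.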
